A study of Arabidopsis thaliana with 12 samples.

Results

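Derivatives of the plant hormone abscisic acid (ABA) with a propyl chain (3'-propyl ABA) or a butyl chain (3'-butyl ABA) were pooled and set against ABA itself in Arabidopsis thaliana Col-0 seedlings. Both carry an alkyl chain at the 3' position that ABA lacks, and the butyl chain is the longer. The comparison used 9 of the 12 libraries in the series, the 6 with an alkyl derivative on one side and the 3 with ABA on the other. Its members are the genes that differed from ABA the same way with both chains. Of 19379 genes whose mean over these 9 libraries reached 1 TPM, 323 met that rule, 161 higher than with ABA and 162 lower.

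Wild-type seedlings were grown at 22 °C with several seedlings to a well and were treated in liquid medium for 6 h under continuous light. All 3 hormone compounds were given at 10 µM, so dose and time match across them, and DMSO was the vehicle. The seedlings were 8 days old by the sample labels and 7 days old by the series text. There were 3 poly(A) libraries per treatment. Nothing in the labels says that replicates came from separate cultures, so p-values measure the spread between these libraries, which may be technical. A whole seedling mixes root and shoot, and in such bulk samples fewer cells of a type and less RNA per cell cannot be told apart.

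ABA is bound by receptors of the PYR/PYL/RCAR family, which then hold clade A protein phosphatases 2C (PP2Cs) in check. This frees SnRK2 kinases, which activate bZIP factors of the ABF group, and these bind promoter elements with an ACGT core. In seedlings ABA is known for slowing growth, turning on dehydration genes and lowering the transcripts of its own receptors, while the PP2C genes rise as a brake on the pathway.

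Estimated depth was 9.64 to 11.8 times 1000000 reads per library, counting reads in genes, and replicates correlated at 0.974 to 0.993 across genes on the log2(TPM + 1) scale. The first principal component held 65.7% of the variance and separated 3'-propyl ABA (44.3 to 58.9) from ABA (-23.3 to -12.9) and 3'-butyl ABA (-36.4 to -34.8). On the next component, with 14.5% of the variance, ABA replicate 3 stood apart at -45.4, against -9.15 and 3.52 for the other ABA libraries, so the counts against ABA are also given without it. Markers of organs and tissues varied between the libraries. The summed level of 4 leaf mesophyll genes was 9697 to 11236 TPM with ABA, 5361 to 7593 with 3'-propyl ABA and 11512 to 12294 with 3'-butyl ABA, and that of 2 phloem genes was 159 to 168, 104 to 142 and 192 to 202 TPM, so that in both sets no treatment overlapped another. For 8 stomatal genes the sums were 65.0 to 73.0, 48.1 to 56.7 and 58.2 to 76.1 TPM in the same order, and for 5 xylem genes 143 to 196, 151 to 173 and 184 to 242 TPM. The summed level of 5 embryo and seed genes was 421 to 1920 TPM with ABA, 84.0 to 622 with 3'-propyl ABA and 485 to 798 with 3'-butyl ABA. For 8 endodermis genes it was 56.0 to 109 TPM, 47.0 to 68.8 TPM and 114 to 145 TPM in the same order. For 8 root hair genes the sums were 40.6 to 131, 68.9 to 111 and 95.3 to 197 TPM. ABA replicate 3 held the highest ABA sum for the embryo and seed genes, 1920 TPM against 421 and 813 in the other ABA libraries. It also held the highest ABA sum for leaf mesophyll and phloem genes and the lowest for root hair, endodermis and xylem genes. None of these marker genes was at 0 in any library, EPF2 of the stomatal set alone differed the same way with both chains, and the part of organ composition in the results below was not tested.

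The mean of both alkyl derivatives differed from ABA for 3035 genes (15.7% of those tested), with 1263 (6.52%) higher and 1772 (9.14%) lower. Of these 3035 genes, 323 (10.6%) were also called the same way with each chain by itself. The test was limma on log2(TPM + 1) with Benjamini-Hochberg adjustment at 0.05. Differences below are on that scale, which understates the fold change of genes with low TPM. With median-of-ratios scaling the pooled split turned to 1549 higher and 1244 lower, and when the 6 alkyl libraries were treated as 1 group, 0 genes passed in limma although 1756 of 19379 had an unadjusted p under 0.05.

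Each pair was then tested by itself, with the p-values of all 3 compound pairs adjusted together. Against ABA, 3'-propyl ABA changed 2968 genes upward (15.3%) and 4786 downward (24.7%), and 3'-butyl ABA changed 1064 upward (5.49%) and 877 downward (4.53%). The chains differed from each other in 8827 genes (45.5%), with 3263 (16.8%) higher and 5564 (28.7%) lower in 3'-propyl ABA. The comparisons with ABA share the 3 ABA libraries. An error in the ABA mean therefore moves both differences the same way, so a shared call is not independent evidence from each chain. Without 3'-butyl ABA replicate 1 the counts for that compound were 482 and 453, without its replicate 3 they were 576 and 523, and without ABA replicate 2 they were 721 and 486. Without ABA replicate 3 the counts were 2715 higher and 4597 lower with 3'-propyl ABA and 758 and 791 with 3'-butyl ABA. With median-of-ratios scaling, genes called with 3'-propyl ABA against ABA numbered 3994 higher and 3362 lower, and those between the chains 4525 higher and 3868 lower.

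**Figure D1:**
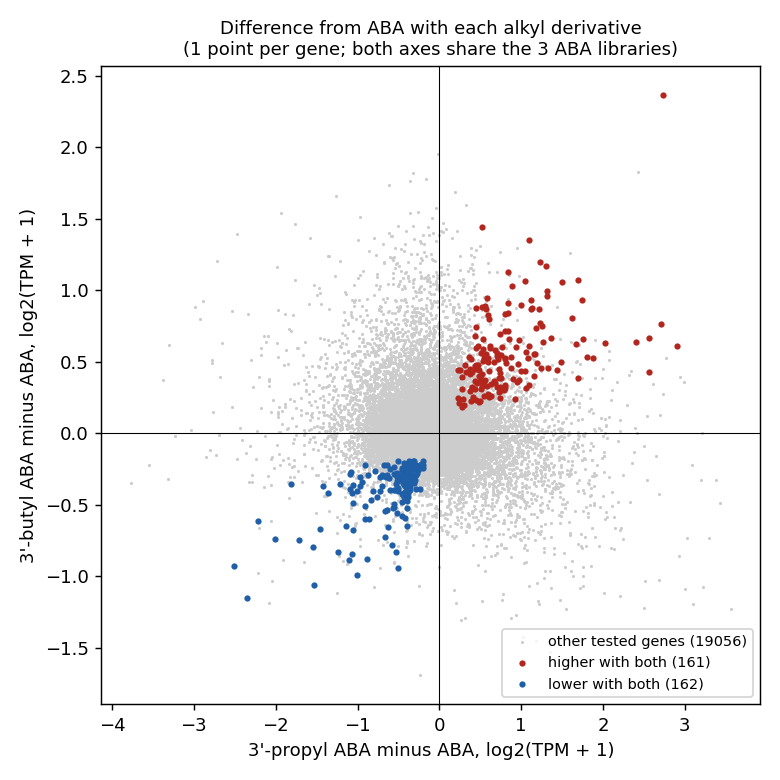
Difference from ABA with 3'-propyl ABA (horizontal axis) and with 3'-butyl ABA (vertical axis) on the log2(TPM + 1) scale, 1 point per tested gene, with both axes sharing the 3 ABA libraries. The 161 genes called higher with both lie at the upper right and the 162 called lower with both at the lower left.

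The 161 higher genes were 0.831% of those tested and the 162 lower genes 0.836%. Most differences were modest. Among the higher genes the median difference was 0.73 with 3'-propyl ABA and 0.50 with 3'-butyl ABA, and among the lower genes it was -0.46 and -0.34. Both differences were at least 1 in size in 7 higher and 2 lower genes. All 6 alkyl libraries lay above the 3 ABA libraries in 157 of the 161 and below them in 159 of the 162, where 2.22% and 4.06% of all tested genes did so (6.28% in either direction), but the rule had already used these values. At the edge of the rule, AT4G38100 (-0.34 with the propyl chain and -0.27 with the butyl chain) and EMB1923 (-0.49 and -0.33) were the members nearest to the threshold, and AT1G48570 (-1 and -0.29) and AAE5 (0.36 and 0.30) lay just outside it.

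The rule lets an unadjusted p of up to 0.0159 pass for either chain, because the many differences with 3'-propyl ABA enter the same adjustment. With adjustment within each pair, an alternative chosen after the data were seen for this count, the limit for 3'-butyl ABA was 0.00108 and 46 higher and 26 lower genes were left. When the larger p of the pairs was adjusted over genes, 0 genes passed in limma (smallest adjusted p = 0.0848), while 770 genes had agreeing signs and a larger p under 0.05 unadjusted. Single libraries mattered too. The count fell to 130 higher and 97 lower genes without ABA replicate 3, to 152 and 105 without ABA replicate 2, to 96 and 56 without 3'-butyl ABA replicate 1, and to 104 and 87 without 3'-butyl ABA replicate 3. The pooled count without ABA replicate 3 was 814 higher and 982 lower, and without 3'-butyl ABA replicate 1 it was 907 and 1139. A firmer core of 36 higher and 20 lower genes kept its call in every fit without a library, under both other scalings and with adjustment within pairs.

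**Figure D2:**
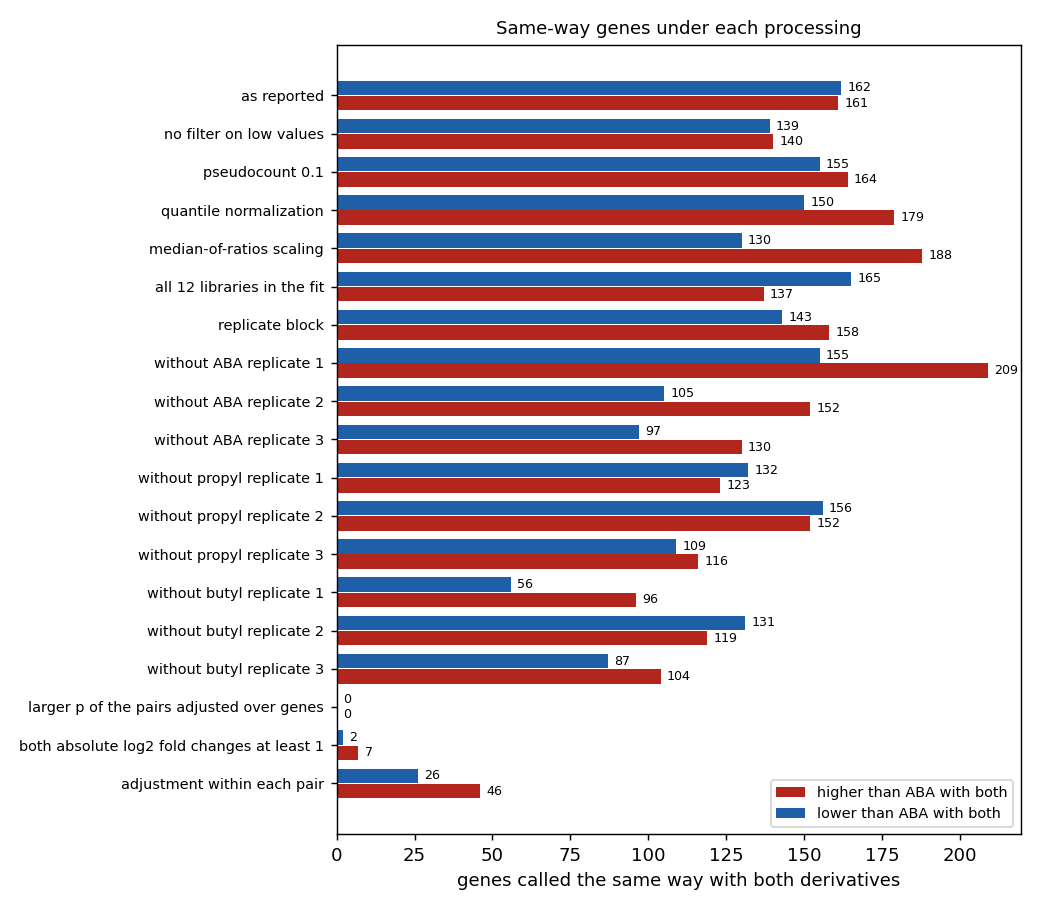
Number of genes called higher (red) and lower (blue) than ABA with both derivatives under each processing, as horizontal bars from 0. The counts as reported are 161 and 162, they fall to 96 and 56 without 3'-butyl ABA replicate 1, and to 0 when the larger p of both pairs is adjusted over genes.

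SRG3, SPX1 and the NAC factor genes NAP and NAC3 were among the 10 genes with the largest increases shared by both chains. SRG3 encodes a glycerophosphodiester phosphodiesterase that cleaves lipid breakdown products, and SPX1 is a phosphate sensor that restrains the starvation regulator PHR1. SRG3 (AT3G02040, chr3:348167-350010 on the TAIR10.1 annotation) stood at 13.9, 17.7 and 8.46 TPM with ABA, 29.6, 29.7 and 34.8 with 3'-propyl ABA and 33.8, 28.8 and 29.7 with 3'-butyl ABA, beside 27.5, 17.4 and 22.2 with DMSO. The 6 alkyl libraries lay above all 3 ABA libraries and above the DMSO libraries as well. The difference was 1.22 with the propyl chain and 1.20 with the butyl chain (adjusted p = 0.00192 and 0.00216), and the chains differed from each other by 0.03 (95% interval -0.45 to 0.50). SPX1 (AT5G20150, chr5:6802282-6803655) was at 19.5, 26.5 and 14.8 TPM with ABA, 63.6, 52.2 and 57.4 with the propyl chain, 45.5, 36 and 45.7 with the butyl chain and 40.2, 25 and 34.1 with DMSO. It rose by 1.50 and 1.06 (adjusted p = 0.00026 and 0.00194).

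NAP is a NAC factor that promotes leaf senescence and chlorophyll loss. It had 17.1, 18.2 and 12.6 TPM with ABA, 42.1, 29.2 and 34.6 with 3'-propyl ABA and 45.7, 43.2 and 36.7 with 3'-butyl ABA, against 0.878, 0.729 and 0.364 with DMSO. Every library with an ABA-type compound was above every DMSO library, and the alkyl libraries were above the ABA libraries, with differences of 1.1 and 1.35 (adjusted p = 0.00057 and 0.00017). Listed as NAC3 in RefSeq, AT3G15500 is another NAC factor of stress and senescence. Its levels were 11.2, 12.1 and 5.99 TPM with ABA, 26.5, 22.6 and 25.9 with the propyl chain, 22.9, 19.5 and 15.9 with the butyl chain and 2.75, 3.55 and 9.15 with DMSO, and it rose by 1.32 and 0.96 (adjusted p = 0.00187 and 0.00996). Of the 14 tested genes of chlorophyll breakdown and senescence, NAP alone was higher with both chains. The list median was 0.92 with 3'-propyl ABA, where 10 members rose and 1 fell, and -0.11 with 3'-butyl ABA, where 3 rose and 4 fell. Among all tested genes 15.3% rose and 24.7% fell with the propyl chain, and 5.49% rose and 4.53% fell with the butyl chain.

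The heat shock factor gene HSFA6A was listed at 0 in all 3 DMSO libraries. It reached 8.07, 10.1 and 10.9 TPM with ABA, 30.2, 18.7 and 28.4 with 3'-propyl ABA and 34.1, 19 and 18.3 with 3'-butyl ABA. The alkyl libraries did not overlap the ABA libraries, and the differences were 1.31 and 1.17 (adjusted p = 0.00427 and 0.00754). The largest shared increase was in AT2G38790, which is annotated as an uncharacterized protein. It was listed at 0, 0 and 0 TPM with DMSO, 0, 0.835 and 0 with ABA, 8.32, 3.45 and 11.9 with the propyl chain and 8.57, 6.46 and 2.52 with the butyl chain. At these low levels the fitted differences of 2.73 and 2.37 depend on the pseudocount, and the pooled value of 2.55 became 4.86 with a pseudocount of 0.1.

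WRKY30, a defence and stress transcription factor, was near the floor with ABA at 0.56, 0.116 and 0.618 TPM and stood at 4.58, 4.01 and 2.39 with 3'-propyl ABA and 1.82, 2.37 and 1.75 with 3'-butyl ABA, against 0.73, 2.02 and 0.353 with DMSO. Its pooled difference of 1.38 became 2.55 with a pseudocount of 0.1. LAC12, a laccase, the enzyme class that oxidizes lignin precursors, had 2.62, 2.88 and 2.35 TPM with ABA, 5.36, 5.4 and 9.14 with the propyl chain and 7.88, 4.65 and 7.6 with the butyl chain. Both chains moved LAC12 by about the same amount, 1.04 and 1.07, with an interval of -0.51 to 0.47 for the difference between them. The remaining genes of the 10 largest increases were AT4G28703, a cupin-family protein that rose by 1.31 and 1.00, and AT3G26510, a Phox/Bem1p-domain protein that rose by 1.11 and 0.93. Each of the 10 kept its call in all 9 fits without a library, but HSFA6A and NAC3 lost theirs with adjustment within each pair, and NAC3 also with all 12 libraries in the fit.

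**Figure D3:**
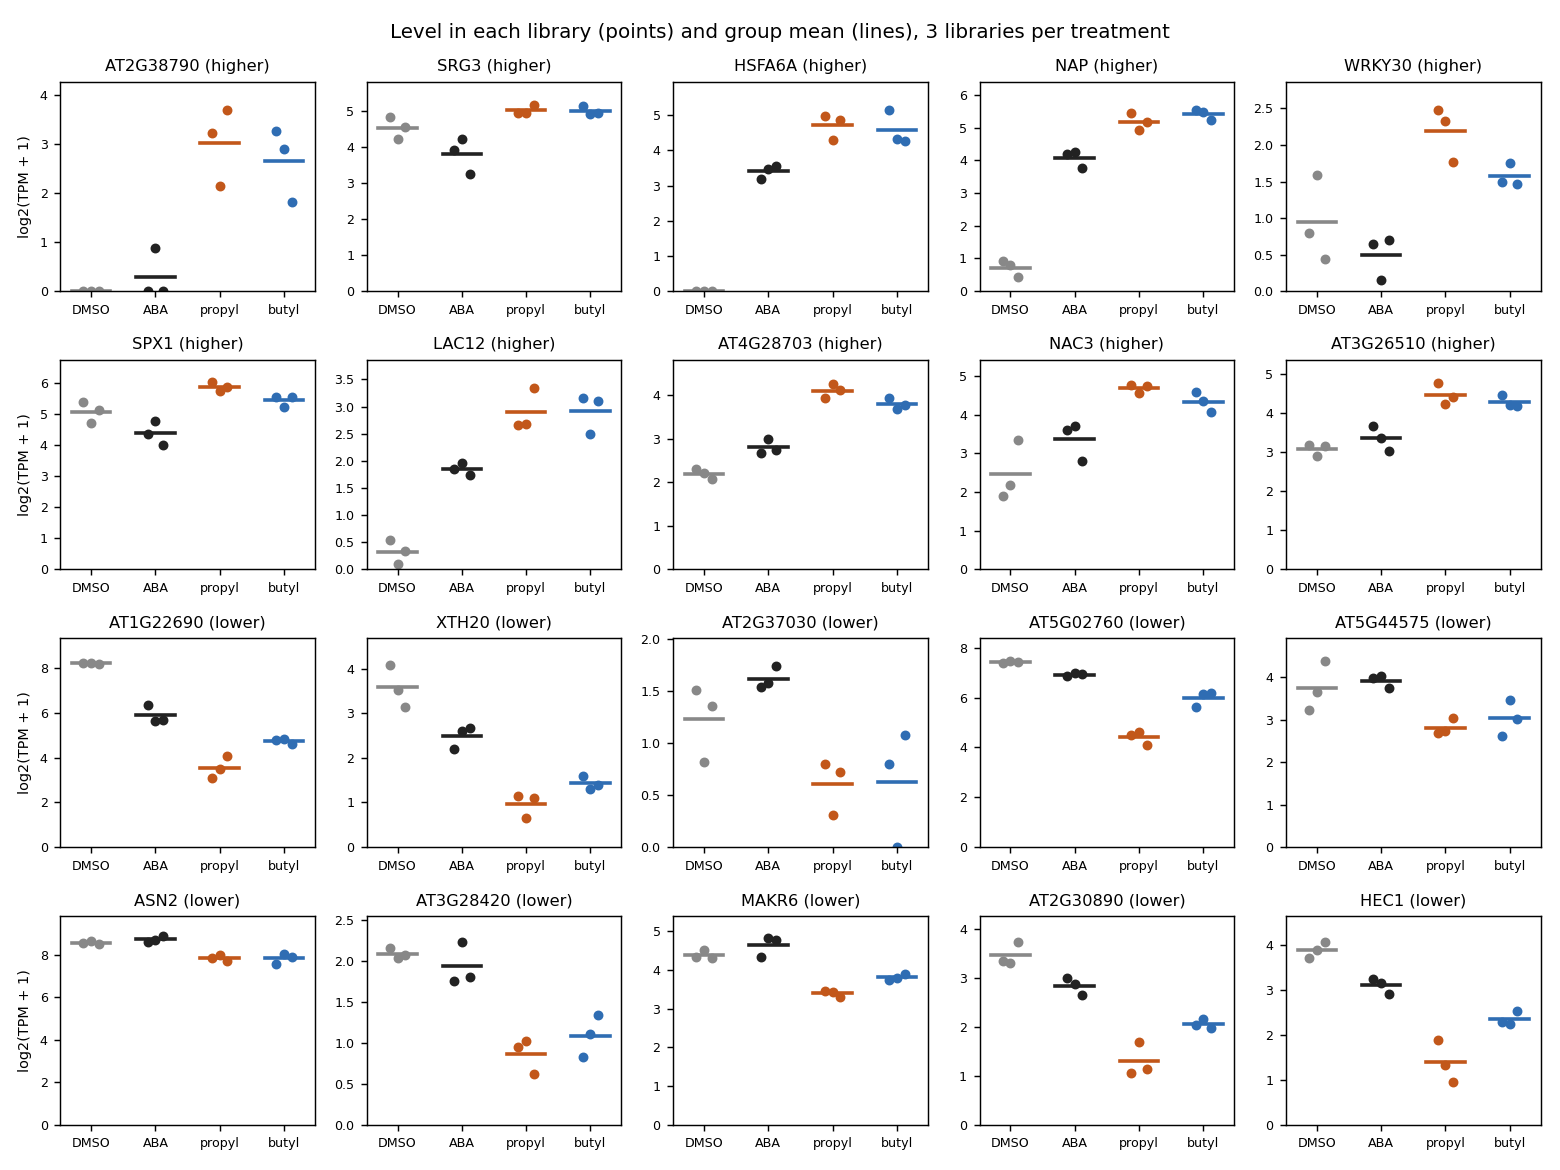
Level of the 10 genes with the largest shared increase and the 10 with the largest shared decrease, as log2(TPM + 1) in each library (points) with the mean of each treatment (lines). In every panel the 6 alkyl libraries lie on the same side of the 3 ABA libraries, as the choice of these genes required, while DMSO lies at 0 for HSFA6A and far above the other treatments for AT1G22690.

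The 10 largest shared decreases included a gibberellin-regulated gene, a cell wall enzyme, a SAUR gene and a PP2C. AT1G22690, a member of the gibberellin-regulated GASA family of small secreted peptides, fell in steps. It had 298, 304 and 293 TPM with DMSO, 81.9, 49.6 and 50.3 with ABA, 27, 28 and 23.3 with 3'-butyl ABA and 7.52, 10.4 and 15.8 with 3'-propyl ABA. None of the 4 treatments overlapped, and the chains differed by -1.20 (adjusted p = 0.00785). XTH20, a xyloglucan endotransglucosylase/hydrolase that remodels the cell wall, had 3.6, 5.11 and 5.33 TPM with ABA, 1.2, 0.574 and 1.15 with the propyl chain and 2.03, 1.48 and 1.61 with the butyl chain, beside 16.1, 10.6 and 7.88 with DMSO. It changed by -1.53 and -1.06 (adjusted p = 0.0002 and 0.00195). XTH9, another member of that family, went from 84.7, 77 and 99.8 TPM with ABA to 73.3, 66.2 and 63.6 and 73.5, 64.7 and 71.9, differences of -0.36 and -0.31, and it kept its call in 2 of the 9 fits without a library and under neither other scaling. XTH20 and XTH9 were the only members of 20 tested expansins and xyloglucan enzymes lower with both. In that list the median was -0.90 with 3'-propyl ABA (2 up, 15 down) and 0.10 with 3'-butyl ABA (6 up, 5 down). The shares over all tested genes were 15.3% up and 24.7% down with 3'-propyl ABA, and 5.49% up and 4.53% down with 3'-butyl ABA.

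AT5G02760 encodes a PP2C outside clade A. It was at 115, 125 and 122 TPM with ABA, 49, 69.5 and 72.7 with 3'-butyl ABA and 21.9, 23.9 and 16.2 with 3'-propyl ABA, while DMSO gave 167, 176 and 169.8. Again no treatment overlapped another, with differences from ABA of -2.51 and -0.93 (adjusted p = 6.9e-06 and 0.00209). HEC1, a bHLH factor of gynoecium and stem cell development, stood at 8.44, 7.81 and 6.55 TPM with ABA, 2.67, 1.53 and 0.927 with the propyl chain and 3.84, 3.73 and 4.76 with the butyl chain. MAKR6, of a family of membrane-associated kinase regulators, was at 19, 27.3 and 26.1 TPM with ABA and fell to 10, 9.71 and 8.93 and 12.3, 12.9 and 13.7. In both genes the chains differed, by -0.96 for HEC1 and -0.40 for MAKR6, with the propyl libraries farther from ABA. The SAUR gene AT2G37030 (from 1.91, 1.98 and 2.34 TPM to 0.743, 0.237 and 0.646 and 0.738, 0 and 1.1) and the membrane lipoprotein AT3G28420 also fell, at levels where the pooled differences of -1 and -0.96 became -2.04 and -1.47 with a pseudocount of 0.1, and AT2G37030 then lost its call, as did HEC1. The last 2 of the 10 were AT5G44575, uncharacterized, with differences of -1.1 and -0.89, and AT2G30890, a cytochrome b561 protein, with -1.55 and -0.79. AT2G37030 and HEC1 kept their call in 5 of the 9 fits without a library and the other 8 in all 9, and AT2G37030 was under the level filter in 3 of the fits. With adjustment within each pair AT2G37030, HEC1, AT1G22690, AT3G28420 and AT2G30890 lost their call.

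ASN2, NIA1 and NIA2, genes of nitrogen assimilation, fell with both chains. ASN2, an asparagine synthetase, was at 381, 419 and 465 TPM with ABA, 228, 251 and 206 with 3'-propyl ABA, 188, 265 and 238 with 3'-butyl ABA and 376, 394 and 367 with DMSO. It lay apart from ABA in all 6 alkyl libraries and changed by -0.88 and -0.88 (adjusted p = 0.00054 and 0.00055), with an interval of -0.29 to 0.28 between the chains. NIA1 and NIA2 encode nitrate reductase, which makes nitrite from nitrate. NIA1 was at 619.5, 655 and 655 TPM with ABA, 288, 318 and 296 with the propyl chain, 463, 504 and 505 with the butyl chain and 767, 776 and 767 with DMSO. The propyl libraries were the lowest, the butyl libraries lay between them and ABA, and the differences were -1.1 and -0.39 (adjusted p = 2.4e-06 and 0.00118). NIA2, more abundant, went from 1177, 1176 and 1091 TPM with ABA to 792, 909.5 and 889 and 954, 981 and 1032. Its call was kept in 2 of the 9 fits without a library and under 1 of the 2 other scalings. With adjustment within each pair NIA2 lost its call. NIA1 and NIA2 were 2 of the 4 tested genes of the nitrate list, where 0.836% of all tested genes were lower with both chains. The list median was -0.36 with 3'-propyl ABA and -0.30 with 3'-butyl ABA, beside medians of -0.09 and 0.01 over all tested genes (0.0019 and -0.011 with median-of-ratios scaling).

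**Figure D4:**
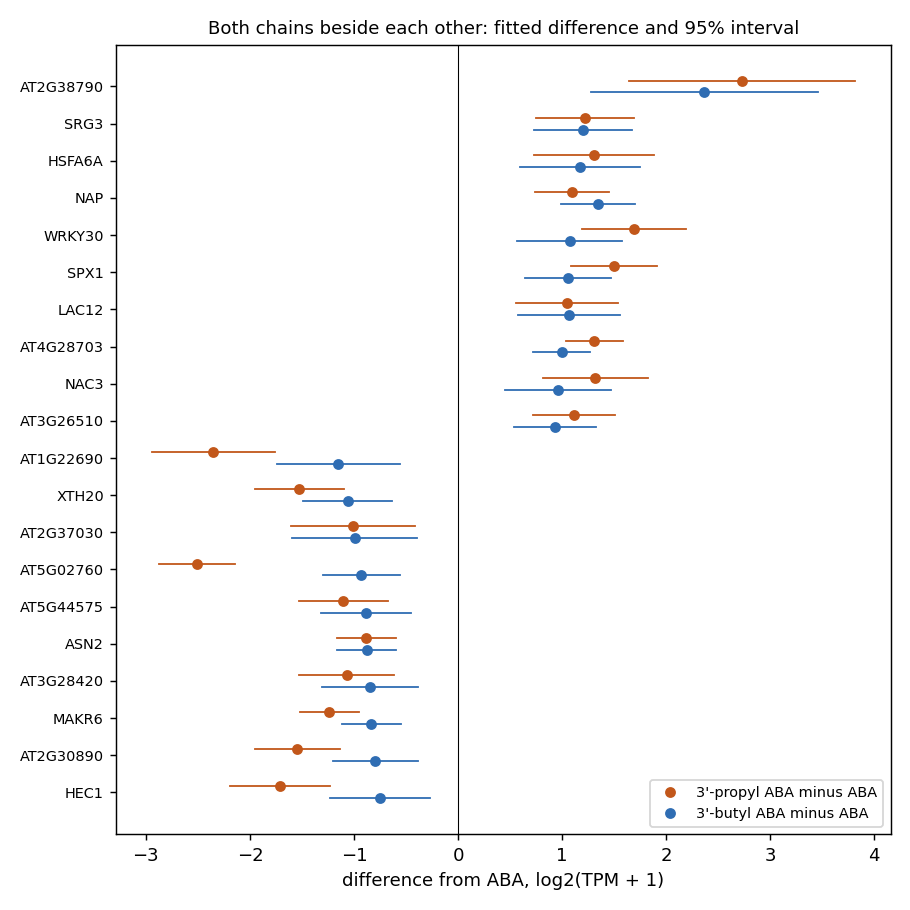
Fitted difference from ABA with 3'-propyl ABA (orange) and with 3'-butyl ABA (blue) for the 20 genes with the largest shared differences, on the log2(TPM + 1) scale, with 95% intervals as lines. The intervals of both chains overlap almost fully for SRG3, LAC12 and ASN2, and the propyl chain lies farther from ABA for AT5G02760 and AT1G22690.

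The promoters of 5 of these genes are shown to let the members be compared in sequence. Each is the 250 bases before the annotated gene start in RefSeq TAIR10.1, read 5' to 3' on the gene's strand, with capitals for 3 motifs searched on both strands. These are ACGTG, the core of ABA response elements, TTGAC, the core of the W box that WRKY factors bind, and GNATATNC, the element that PHR1 binds in phosphate genes. They lie at chr3:350011-350260 (minus strand, SRG3), chr5:6802032-6802281 (plus, SPX1), chr1:26121830-26122079 (plus, NAP), chr5:625004-625253 (plus, AT5G02760) and chr5:25968785-25969034 (plus, ASN2).
SRG3: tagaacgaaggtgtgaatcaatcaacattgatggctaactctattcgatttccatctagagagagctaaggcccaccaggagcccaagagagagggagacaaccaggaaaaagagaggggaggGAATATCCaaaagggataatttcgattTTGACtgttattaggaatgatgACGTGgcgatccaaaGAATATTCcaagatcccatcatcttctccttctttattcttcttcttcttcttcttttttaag
SPX1: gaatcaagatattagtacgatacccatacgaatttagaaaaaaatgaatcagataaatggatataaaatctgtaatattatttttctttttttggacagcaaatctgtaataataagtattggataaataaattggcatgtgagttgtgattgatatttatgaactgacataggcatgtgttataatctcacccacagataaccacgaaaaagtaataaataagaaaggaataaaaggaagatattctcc
NAP: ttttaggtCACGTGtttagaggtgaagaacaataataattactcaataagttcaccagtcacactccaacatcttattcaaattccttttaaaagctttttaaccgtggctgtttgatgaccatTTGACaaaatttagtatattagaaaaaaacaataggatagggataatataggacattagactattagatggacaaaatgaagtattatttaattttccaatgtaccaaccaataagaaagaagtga
AT5G02760: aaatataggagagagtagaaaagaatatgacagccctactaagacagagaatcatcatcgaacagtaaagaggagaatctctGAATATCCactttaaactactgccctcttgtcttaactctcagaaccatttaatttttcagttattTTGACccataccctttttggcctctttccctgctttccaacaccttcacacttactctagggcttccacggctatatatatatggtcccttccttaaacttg
ASN2: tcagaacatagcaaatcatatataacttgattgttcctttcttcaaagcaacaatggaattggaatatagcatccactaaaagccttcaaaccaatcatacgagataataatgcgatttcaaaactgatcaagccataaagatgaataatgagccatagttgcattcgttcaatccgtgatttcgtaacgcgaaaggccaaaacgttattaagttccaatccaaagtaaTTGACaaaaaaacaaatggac
SRG3 held GNATATNC at 2 places, with ACGTG and TTGAC between them. In NAP the 2 ACGTG matches overlap, on opposite strands of a palindrome. SPX1 held none of the 3 motifs in this window, which says only that these letters are not there. Over all 19254 promoters read, 24.2% held ACGTG, 44.9% TTGAC and 5.53% GNATATNC. Among the 161 higher genes the shares were 42.2%, 55.9% and 9.94%, and among the 162 lower genes they were 16%, 45.7% and 4.94%. A match is a description of the sequence and not a binding site.

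In the core ABA pathway more genes were called with the propyl chain than with the butyl chain, as over all tested genes (40% and 10%). With 3'-propyl ABA 24.7% of all tested genes fell, and with 3'-butyl ABA 5.49% rose. None of the 9 tested receptor genes, 9 clade A PP2Cs, 9 genes of ABA breakdown and conjugation, or 10 ABF and AFP regulators was called the same way with both chains, and at the background share of 1.67% of all tested genes, lists this short hold few or none, so these counts are near the background. In the receptors the pooled mean hid opposite moves. Their median difference was -0.77 with 3'-propyl ABA, where 6 fell, and 0.54 with 3'-butyl ABA, where 4 rose, which left a pooled median of -0.04 (0.00083 after quantile normalization). PYL4 shows it, with 48, 42.3 and 31 TPM with ABA, 6.57, 6.51 and 8.87 with the propyl chain, 56.4, 53.3 and 61.8 with the butyl chain and 242, 247 and 265 with DMSO. The propyl libraries were below and the butyl libraries above every ABA library, and the chains differed by -2.82 (adjusted p = 2.4e-06). PYL6 went the same way, from 1.8, 1.49 and 0.496 TPM with ABA to 0, 0.101 and 0.274 with the propyl chain and 5.64, 4.59 and 5.53 with the butyl chain. PYL5 and PYL7 were also called in opposite directions with the chains, by -0.78 and 0.69 and by -0.77 and 0.68. PYR1 changed by -0.57 with 3'-propyl ABA and by 0.54 with 3'-butyl ABA, where it missed the threshold (adjusted p = 0.0466 and 0.0565 in limma). PYL8 changed by -0.84 with 3'-propyl ABA and was not called with 3'-butyl ABA (0.10). PYL1, PYL2 and PYL9 were called with neither chain (differences of -0.16 and -0.08, -0.22 and 0.58, and -0.31 and 0.47).

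In the PP2C and breakdown lists, the genes with a pooled call passed with the propyl chain and not with the butyl chain. Of the 9 clade A PP2Cs, 8 rose with 3'-propyl ABA and 0 with 3'-butyl ABA, although 7 were called in the pooled contrast. Of all tested genes 15.3% rose with 3'-propyl ABA, 5.49% with 3'-butyl ABA and 6.52% in the pooled contrast. The count of 0 with the butyl chain is thus near the background. HAI1 had 132, 158 and 177 TPM with ABA, 329, 343 and 326 with the propyl chain and 204, 167 and 149 with the butyl chain, from 1.13, 0.938 and 1.89 with DMSO. The butyl libraries overlapped ABA and the propyl libraries did not, and the chains differed by 0.95 (adjusted p = 0.00029). ABI1, ABI2, HAB1, HAB2, PP2CA, HAI2 and HAI3 were likewise called with the propyl chain and not with the butyl chain. Their differences with 3'-butyl ABA ran from -0.26 to 0.29 and with 3'-propyl ABA from 0.68 to 1.45, and AHG1 was called with neither. CYP707A3, an ABA hydroxylase that starts ABA breakdown, had 16.3, 18.8 and 16.2 TPM with ABA, 71.5, 97 and 80.3 with the propyl chain and 19.1, 17.9 and 17.8 with the butyl chain. It carried the pooled call at 1.15 although the butyl difference was 0.09 (95% interval -0.15 to 0.33). CYP707A1, CYP707A2 and CYP707A4 rose with the propyl chain too, by 0.93, 1.70 and 1.92, beside values of 0.09, -0.10 and -0.22 with the butyl chain. Among the conjugation genes AT3G21790, a glycosyltransferase whose reads may be shared with close copies, rose with 3'-propyl ABA by 0.62, UGT71C5 changed by -0.65 with the propyl chain and rose by 0.42 with the butyl chain, BGLU18, which frees ABA from its glucose ester, changed by -1.24 with the propyl chain, and UGT71B6 and BGLU33 were called with neither.

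ABF2 and ABF3 passed with the propyl chain and missed the threshold with the butyl chain. ABF2, a bZIP activator of the pathway, was at 49.3, 54.8 and 50.8 TPM with ABA, 74.7, 64.8 and 61.6 with 3'-propyl ABA and 71.4, 61.6 and 55.9 with 3'-butyl ABA. All alkyl libraries lay above the ABA libraries, yet the butyl pair missed the threshold (0.37 and 0.28, adjusted p = 0.019 and 0.062). ABF3 had the same pattern, with 0.54 and 0.25 (adjusted p = 0.00143 and 0.0697), and ABF4 had 0.38 and 0.38 and passed with neither. AFP1, AFP3 and AFP4, repressors that act on ABI5, rose with the propyl chain by 1.26, 1.00 and 1.32, beside 0.17, 0.18 and 0.22 with the butyl chain. ABI5 and GBF3 rose with 3'-propyl ABA by 0.59 and 0.65, and ABF1 and AFP2 were called with neither chain. Over the 10 genes the median was 0.57 with 3'-propyl ABA and 0.23 with 3'-butyl ABA.

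Other large programmes also had more genes called with the propyl chain, as did all tested genes (40% called, against 10% with the butyl chain). By direction, 15.3% of all tested genes rose and 24.7% fell with 3'-propyl ABA, and 5.49% rose and 4.53% fell with 3'-butyl ABA. The 21 LEA and dehydration genes rose in 18 cases with 3'-propyl ABA and fell in 9 with 3'-butyl ABA, with medians of 1.05 and -0.30. Among the 20 genes for light harvesting and Rubisco, the propyl chain lowered 19 and the butyl chain raised 2 (medians of -0.74 and 0.25). All 13 ribosome biogenesis genes fell with 3'-propyl ABA and 0 were called with 3'-butyl ABA (medians of -0.55 and -0.08). SnRK2 kinases (10 tested), auxin response genes (18), jasmonate genes (21), cuticular wax (9), flavonoid genes (15), proline and raffinose (10), low oxygen (12), type-A cytokinin response regulators (8), aquaporins (16), ABA biosynthesis (6) and iron (2) gave 0 shared calls, as did the 3 lists above and the leaf mesophyll, xylem and phloem markers. With 1.67% of all tested genes shared, 0 in a list of these sizes is near the background.

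**Figure D5:**
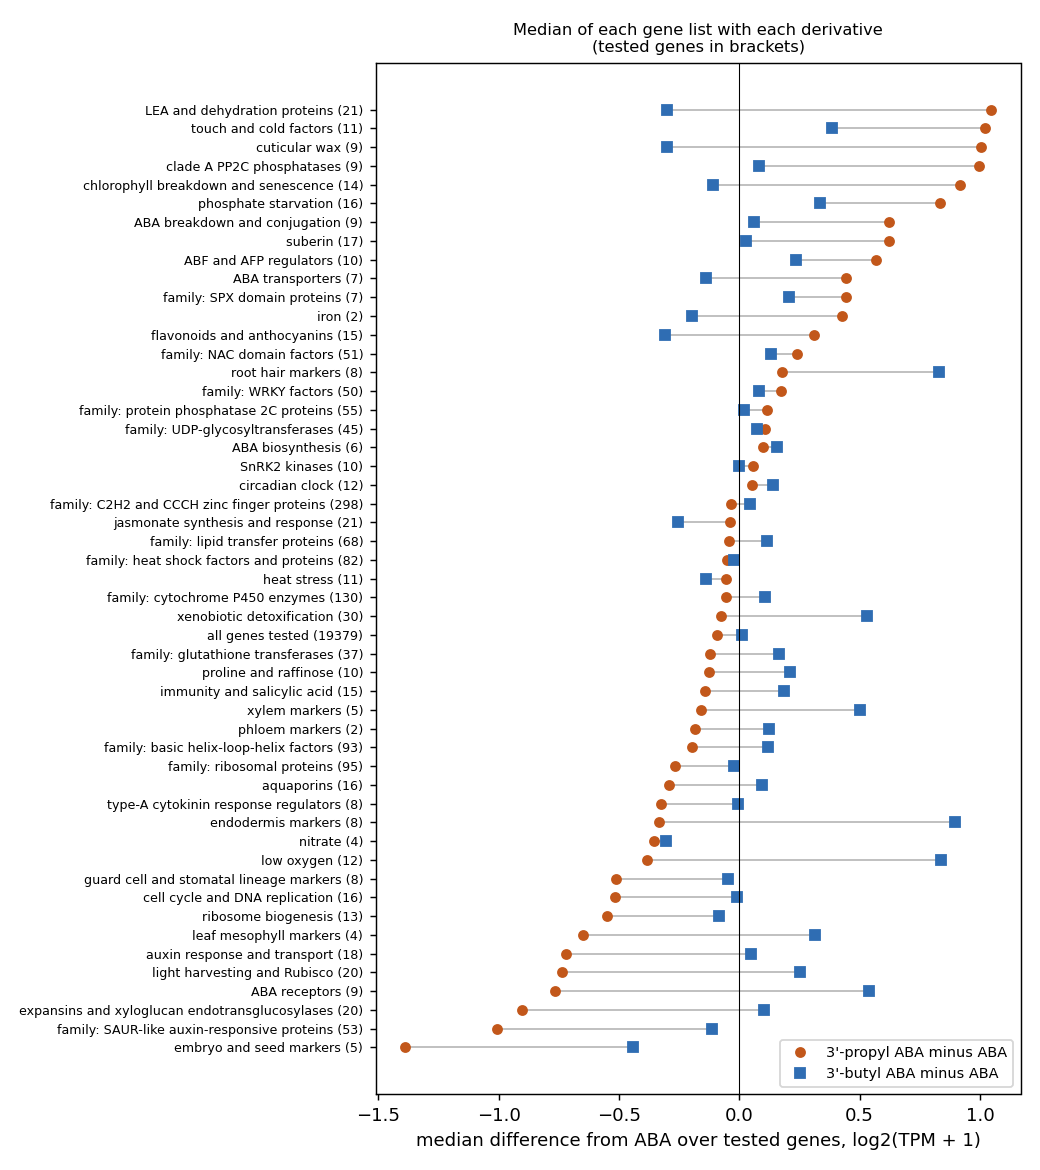
Median difference from ABA over the tested genes of each list with 3'-propyl ABA (circles) and 3'-butyl ABA (squares), on the log2(TPM + 1) scale, with gene numbers in brackets, and rows named family or phosphate starvation chosen after the values were seen. The LEA and receptor lists lie on opposite sides of 0 with the chains, and the nitrate list lies at -0.36 and -0.30.

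A few lists held 1 to 3 shared members each, beside 0.831% of all tested genes shared upward and 0.836% downward. ABCG25 exports ABA from cells, and it was at 27, 26 and 21.6 TPM with ABA, 36.9, 31.8 and 35.9 with the propyl chain and 44.7, 30 and 31.5 with the butyl chain. It was the only shared member of 7 ABA transporters, with differences of 0.47 and 0.48. CBF2, a cold-response regulator among 11 touch and cold factors, was higher with both, and here the butyl chain went farther. Its levels were 10.8, 8.96 and 13.9 TPM with ABA, 14.9, 17.9 and 16.2 with 3'-propyl ABA and 39.1, 28.5 and 28.6 with 3'-butyl ABA, and the chains differed by -0.92 (adjusted p = 0.00167). Among 12 clock genes the morning factors PRR9 (0.51 and 0.56) and CCA1 (0.97 and 0.37) rose and the evening complex member LUX (-0.20 and -0.24) fell. LUX went from 47.6, 49 and 47 TPM with ABA to 40, 42 and 42.8 and 39.6, 42.4 and 39.3. PCNA1, the replication clamp, changed by -0.72 and -0.30 as 1 of 16 cell cycle genes, and EPF2, a peptide that limits stomatal number, changed by -0.45 and -0.58 as 1 of 8 stomatal markers. CYP81D8 of the 30 detoxification genes rose by 0.73 and 0.39, and MYB53 of the 17 suberin genes by 0.62 and 0.60. WRKY33 was the shared member of 15 immunity genes, and HSFA6A that of 11 heat stress genes. Of the genes in these lists that this paragraph names, PRR9, CCA1, LUX, PCNA1, MYB53, CYP81D8 and ABCG25 kept their call in 2 to 4 of the 9 fits without a library, and WRKY33, CBF2 and EPF2 in 5 to 6. EPF2 lost its call under both other scalings, and LUX and MYB53 under 1 of the 2. With adjustment within each pair, every gene named in this paragraph except CBF2 lost its call.

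The chains were also set against each other within the shared genes. Of the 323, 102 differed between 3'-propyl ABA and 3'-butyl ABA, with the propyl chain farther from ABA in 53 higher and 44 lower genes and the butyl chain in 4 higher and 1 lower. In the other 221 the difference between the chains did not pass, which does not show that they act alike. The 95% interval of that difference lay within 0.5 of 0 in 182 of the 323. Among the genes with the widest gap were DIC2, a mitochondrial dicarboxylate carrier, the glycine-rich protein gene AT1G07135, the zinc finger gene SZF1, the ethylene response factor ERF104 and WRKY33. DIC2 had 9.94, 12.4 and 13 TPM with ABA, 19.4, 19.9 and 16.2 with the butyl chain and 79.2, 121 and 87.3 with the propyl chain, beside 47.4, 58 and 51.7 with DMSO. The propyl libraries lay above DMSO, the butyl libraries between ABA and DMSO, and the difference between the chains was 2.29 (95% interval 1.94 to 2.64). WRKY33, a regulator of defence genes, had 39.5, 35.8 and 25.4 TPM with ABA, 50.9, 51.4 and 53.2 with the butyl chain, 149, 230.2 and 166 with the propyl chain and 53.2, 66.7 and 76.5 with DMSO. SZF1, ERF104 and AT1G07135 had gaps of 1.95, 1.89 and 2.13. ERF104 and AT1G07135 kept their shared call in 4 of the 9 fits without a library, and these genes and DIC2 and WRKY33 lost it with adjustment within each pair. AT1G22190, an ERF-type factor, had a large shared difference and a narrow interval between the chains, with 43.6, 39.9 and 37.8 TPM with ABA, 82.1, 99.5 and 86.3 with the propyl chain and 85.8, 69.3 and 69.1 with the butyl chain, and a gap of 0.26 (95% interval 0.03 to 0.49). AT2G29300 and AT4G02090 had gaps of -0.07 and -0.01, with intervals of -0.48 to 0.34 and -0.47 to 0.45. These genes were picked for the size or the interval of the gap, so their gaps are a description.

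Levels with DMSO are given untested. The rule did not use DMSO, but it did use the alkyl means, so high alkyl means in the higher genes and low ones in the lower genes are favoured by the choice, and nothing is read from the shares. Of the 161 higher genes, both alkyl means lay above the DMSO mean in 135 (83.9%) and below it in 10 (6.21%), where 35.7% and 41.8% of all tested genes did so. Of the 162 lower genes, both alkyl means lay below the DMSO mean in 139 (85.8%) and above it in 13 (8.02%). SRG3 and SPX1 were in the first of these groups although the ABA mean stood below the DMSO mean, and NIA1 and ASN2 were in the second.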

How the data were processed

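RNA from 12 libraries of whole seedlings was sequenced as read pairs of 100 bases from strand-specific poly(A) libraries, per the labels' protocols. The deposited values are TPM per gene, made by the authors, for 27655 genes, and each library sums to 1000000. Per the submitters' processing notes bcl2fastq and the TAIR10 genome were used, and for the aligner and the counting tool the sources used here name nothing. TPM divides by gene length and by the library total, so a strong change in abundant genes shifts all others. The values of 96.6% of 1337 low genes fell on whole steps (tolerance 0.01 of a step), and 1 read in a gene of 1 kb was then worth 0.130 to 0.169 TPM. These depths are estimates and cover counting error only. Near-identical gene copies cannot be told apart in such values.

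The transformation was log2(TPM + 1), and a gene was tested where its mean over the 9 libraries without DMSO reached 1 TPM. A mean per compound was fitted with limma (version 3.58.1, under R 4.3.3), using lmFit and the trend and robust options of eBayes. Residual degrees of freedom were 6, and the prior added 4.37 at the median. The pooled contrast was the mean of both alkyl groups minus ABA, adjusted by Benjamini-Hochberg over genes. For the 3 compound pairs, p-values were adjusted over genes and pairs jointly, all tests were two-sided, and a gene was called at an adjusted p below 0.05. A shared gene was called in both pairs with ABA with the same sign. DMSO libraries gave a background level only. The fit was tested on simulated data. RefSeq TAIR10.1 had an entry for 27445 genes and none for 210. It gave symbols, gene positions and the promoter sequences, and a gene without a symbol is named by its locus. The deposited values carry no coordinates.

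The members, the 36 gene lists (438 genes, of which 412 could be tested) and the naming rule were chosen with earlier results of these data known. The phosphate starvation list and 13 families found by product name were added after the values were seen. Named genes are the 10 higher and 10 lower shared genes with the largest smaller-of-both difference whose libraries do not overlap, every tested gene of the receptor, clade A PP2C, breakdown and ABF lists, up to 4 shared genes of every other list, and the 5 shared genes with the largest and 5 with a small gap between the chains. Alternatives were no filter on low values, a pseudocount of 0.1, quantile normalization, median-of-ratios scaling, all 12 libraries, a replicate block, other adjustments, a fold threshold and leaving out each of the 9 libraries. Figures were drawn with matplotlib.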

Additional observations from a re-analysis of the deposited data

Results flagged for a closer look

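Among 77 named genes, the 6 alkyl libraries were searched for a library far from the others, and 1 gene had one. Chance flags about 1 group in 20 where all libraries share a single mean. The libraries here mix both compounds, and a gap between the chains can hide an outlying library, so that rate does not apply to such genes. PRR9 had 18, 18.1 and 18.4 TPM with 3'-propyl ABA and 24.9, 18.1 and 14.9 TPM with 3'-butyl ABA, so that 3'-butyl ABA replicate 1, at 24.9 TPM, stood above the rest. The ABA libraries had 11.8, 13.7 and 12.1 TPM. Without that library PRR9 was still called higher with both chains, with a pooled difference of 0.44 in place of 0.53. It kept the call in 4 of the 9 fits without a library and lost it with adjustment within each pair.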

How the results depend on the processing

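The called direction of the shared genes was not reversed in any of the 15 other fits. Filter, pseudocount, both scalings, all 12 libraries and the replicate block kept each count of called genes within 1.5 times the reported count. With the replicate block 158 genes were higher and 143 lower with both chains and the pooled counts were 1182 and 1476. After each treatment's mean was subtracted per gene, same-numbered libraries of different treatments correlated at -0.128 to 0.233, with 4 of 9 pairs over 0.1. Among them were all 3 pairs of replicate 1 libraries (0.121 to 0.233). Differently numbered libraries correlated at -0.261 to 0.225, with 5 of 18 pairs over 0.1. As 5 of the 9 same-numbered pairs were not over 0.1, and not every library correlated best with its own number, the numbers were not taken as pairing the libraries. Under quantile normalization 179 and 150 genes were shared, 139 and 124 of them among those reported. Treating the alkyl libraries as 1 group left 0 and 0 pooled genes, adjusting the larger p left 0 and 0 shared genes, a fold threshold left 7 and 2, and adjustment within pairs left 46 and 26 shared genes and 217 and 202 for 3'-butyl ABA against ABA.

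Leaving out each library gave 814 to 1178 higher and 982 to 1764 lower genes in the pooled contrast, and 96 to 209 higher and 56 to 156 lower shared genes. For 3'-propyl ABA against ABA it gave 2432 to 2791 higher and 3664 to 4597 lower, for 3'-butyl ABA against ABA 482 to 1449 higher and 453 to 905 lower, and between the chains 2741 to 3496 higher and 4265 to 5965 lower. The lowest 3'-butyl ABA counts came without its replicate 1, those without its replicate 3 were 576 and 523, and without ABA replicate 2 the lower count was 486; the cause was not tested. The 95% interval of a pair reached a median of 0.255 to either side, so smaller differences were mostly out of reach with 3 libraries per compound.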

Other observations

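A list of 17 phosphate starvation genes, put together after SRG3 and SPX1 had been seen, had 16 tested members. Besides these, G3Pp1, a glycerol-3-phosphate transporter, was higher with both chains, at 20.3, 21.6 and 11.7 TPM with ABA, 40.1, 39.3 and 48.9 with 3'-propyl ABA and 33.4, 27.1 and 28.8 with 3'-butyl ABA, and 25.5, 20.9 and 26.5 with DMSO. G3Pp1 kept its call in 8 of the 9 fits without a library and lost it with adjustment within each pair. In all, 3 of the 16 rose with both chains, 9 rose and 2 fell with 3'-propyl ABA, and 4 rose with 3'-butyl ABA, with medians of 0.83 and 0.34. These values include SRG3 and SPX1, for which the list was made, so they are partly fixed by the choice. Over all tested genes 0.831% rose with both chains, 15.3% rose and 24.7% fell with 3'-propyl ABA and 5.49% rose with 3'-butyl ABA. PHT1;1, PHO1 and PHO2, which move phosphate or control its transport, had differences of -0.98 and 0.61, -0.29 and 0.85, and -0.24 and -0.22, and were not among the shared genes.

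Light signalling genes outside the clock list were also among the 323, picked here after their values were seen. HY5, the bZIP factor at the centre of light responses, had 11.4, 8.95 and 5.84 TPM with ABA, 14.5, 13.1 and 12.5 with 3'-propyl ABA and 19.4, 13.3 and 14.2 with 3'-butyl ABA. The B-box gene STO rose by 0.58 and 0.33, SPA3, which acts with the COP1 ubiquitin ligase, by 0.85 and 0.66, and RPT2 of phototropism by 0.38 and 0.52. The blue light F-box gene FKF1 changed by -0.21 and -0.23, and COR27, which represses clock and cold genes, by -0.57 and -0.52. STO, SPA3, RPT2 and COR27 kept their calls in all 9 fits without a library, whereas HY5 kept its call in 1 and FKF1 in 2, and FKF1 also lost it under 1 of the 2 other scalings.

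By product name, in families chosen after the values were seen, 4 of 53 tested SAUR genes were lower with both chains and 0 higher. The medians were -1.01 with 3'-propyl ABA and -0.11 with 3'-butyl ABA, and over all tested genes 0.836% were lower and 0.831% higher. AT2G37030, AT1G29500, AT3G53250 and AT1G75580 kept their call in 5, 5, 4 and 2 of the 9 fits without a library. All of these SAUR genes lost it with adjustment within each pair. Of 55 PP2C proteins, 3 were lower (AT5G02760, AT3G16560 and AT4G38520) and 1 higher (AT1G03590), none of them in clade A, and AT1G03590 kept its call in 1 of the 9 fits without a library. AT3G16560 had 37.3, 44.3 and 51.9 TPM with ABA, 28.1, 33.3 and 26.5 with the propyl chain and 21.2, 27.8 and 27.2 with the butyl chain. Of 51 NAC factors 3 were higher and of 45 UDP-glycosyltransferases 3 (UGT73B2, UGT85A5 and UGT71C4), with UGT71C4 keeping its call in 2 of those 9 fits, while 4 of 93 basic helix-loop-helix factors were lower. Among transporters of the ABC class, ABCC2, a vacuolar pump of conjugates, rose by 0.37 and 0.45 and kept its call in 6. In the remaining families, 2 of 50 WRKY factors and 1 of 7 SPX domain proteins were higher with both chains. Heat shock genes had 2 higher and 1 lower of 82, and cytochrome P450 enzymes 2 and 1 of 130. Zinc finger proteins had 4 and 4 of 298, lipid transfer proteins 1 and 1 of 68. Glutathione transferases had 0 and 1 of 37, and ribosomal proteins 0 and 0 of 95.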
